A study of Bos taurus with 15 samples.

Results

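Transcripts of 9 amino acid transporter genes grouped around SLC7A3 are described here across 15 RNA sequencing libraries of bovine (Bos taurus) oocytes. The 9 genes, out of 24616 in the deposited table, were taken by symbol: SLC7A1, SLC7A2, SLC7A3, SLC7A5, SLC7A6, SLC7A11, SLC3A2, SLC38A2 and SLC1A5. SLC7A3 was chosen by its measured difference between vitrified and fresh oocytes in these same libraries, so its difference from fresh oocytes is given as a description, with no test. The 8 other genes are its relatives, partners and functional neighbours, and all 9 symbols were found in the table.

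The oocytes fell into 5 groups of 3 libraries. The 4 vitrified groups had been cooled in liquid helium or in liquid nitrogen, each with cryoprotective agent at 5.6 M or at 6.6 M, and each is named by its coolant and concentration (helium 5.6 M, for example). The last group was fresh. Vitrification cools cells in a concentrated cryoprotectant so fast that the water sets as a glass without ice. All groups shared in vitro maturation for 22 to 24 h at 38.5 °C in medium with serum, gonadotropins and 100 µM cysteine, and removal of cumulus cells with hyaluronidase. By title the study is on immature oocytes, but every sample is labelled as matured in vitro. The labels give neither the composition of the cryoprotectant nor the number of oocytes in a library, although RNA was taken from single cells.

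Amino acid transporters differ in which amino acids they carry and in how they are built. The cationic transporters SLC7A1, SLC7A2 and SLC7A3 work alone and let arginine, lysine and ornithine through the membrane without sodium. SLC7A5, SLC7A6 and SLC7A11 are light chains that reach the cell surface only when paired with the heavy chain SLC3A2, and each exchanges one amino acid for another. Oocytes take up amino acids through their own membrane and, while cumulus cells are attached, through gap junctions with them.

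Depth differed between the groups. Library totals ran from 1601519 to 8569618 counts, and the 6 helium libraries and nitrogen 6.6 M library 3 lay above 4000000 counts, whereas the other 5 nitrogen libraries and the 3 fresh ones lay below. All 10 oocyte markers present in the table, ZP2 and KPNA7 being the most abundant, had counts in every library. Their summed level was 5368 to 8984 CPM (counts scaled to library size) in vitrified libraries and 4769 to 9062 CPM in fresh ones. Of 23 cumulus and granulosa markers, 9 to 20 had counts in vitrified libraries, with 321 to 588 CPM in sum, and 10 to 13 in fresh libraries, with 308 to 461 CPM. FSHR, AMHR2 and COL3A1 were at 0 in all 15 libraries, whereas HAS2 and STAR had counts in all 15. The highest sum, 588 CPM, was that of helium 6.6 M library 2. No label ties the replicates to separate cows or culture runs, and the p-values therefore rest on library-to-library spread that could be technical. In such relative values, fewer cells of a type and less RNA per cell cannot be told apart.

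SLC7A3 (ENSBTAG00000007403), on chromosome X at positions 85010185 to 85015644 of the bovine build UMD3.1, dominated the family. It was the most abundant of the 52 amino acid transporter genes in the table in each of the 15 libraries. Per length, in FPKM (fragments per kilobase, scaled to library size), it averaged 306 ± 44.9 in vitrified oocytes (SD, n = 12) and 138 ± 51.0 in fresh oocytes (n = 3). SLC3A2, at 58.1 ± 21.2 FPKM in vitrified oocytes and 57.0 ± 39.8 FPKM in fresh ones, and SLC1A5, at 24.7 ± 8.36 FPKM in vitrified oocytes and 26.1 ± 19.1 FPKM in fresh ones, followed among the 9 genes. SLC7A2 and SLC7A6 lay near 4 FPKM, and SLC7A1, SLC7A5, SLC7A11 and SLC38A2 never passed 1.67 FPKM in any library. These 4 rare transcripts did not pass the filter on low counts, so 5 of the 9 genes were tested.

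**Figure D1:**
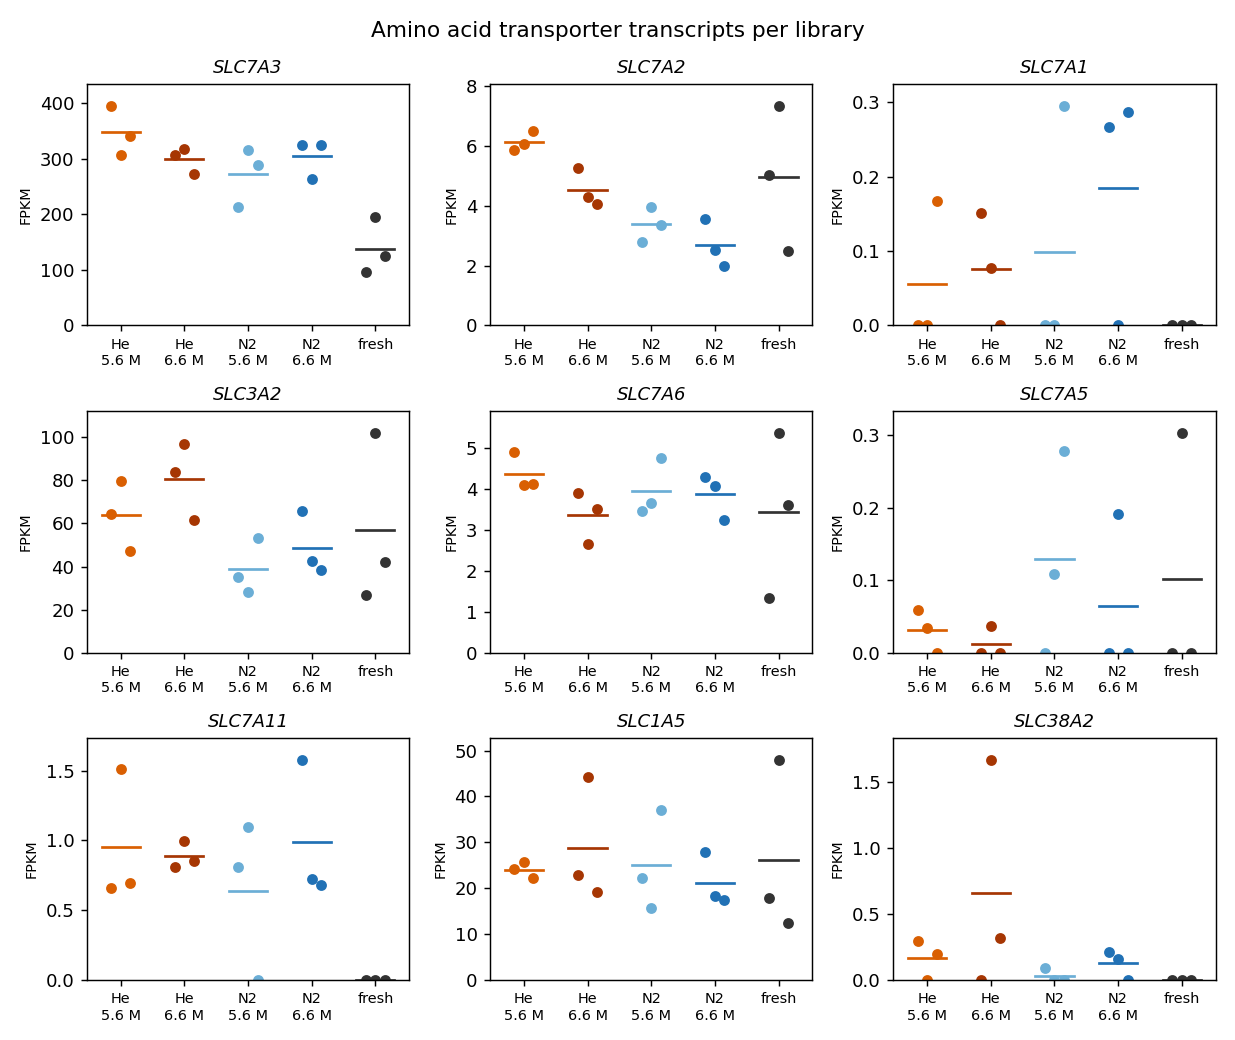
Transcript level of each of the 9 transporters in FPKM (linear axes that start at 0 and differ between panels); each point is a library and each line the mean of the 3 libraries of a group, with He for helium and N2 for nitrogen. SLC7A3 lies at 212 to 395 FPKM in the 12 vitrified libraries and at 95.4 to 195 FPKM in the 3 fresh ones, while the groups of SLC7A2, SLC3A2, SLC7A6 and SLC1A5 overlap the fresh libraries.

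For differences between libraries, counts were scaled to CPM with the trimmed mean of M-values (TMM). SLC7A3 stood at 832, 672 and 799 CPM in helium 5.6 M oocytes, against 230.4, 363 and 335 CPM in fresh oocytes. It stood at 692, 645 and 602 CPM in helium 6.6 M oocytes, at 474, 771 and 676 CPM in nitrogen 5.6 M oocytes and at 740.1, 630.5 and 757 CPM in nitrogen 6.6 M oocytes. All 12 vitrified libraries lay above all 3 fresh ones, and the nearest pair was nitrogen 5.6 M library 1 and fresh library 2. The fitted difference from fresh oocytes was 1.31 (SE 0.21) on the log2 scale for helium 5.6 M, 1.06 (SE 0.21) for helium 6.6 M, 1.05 (SE 0.21) for nitrogen 5.6 M and 1.20 (SE 0.21) for nitrogen 6.6 M. These 4 differences share the same 3 fresh libraries. Over all 12 vitrified libraries it was 1.15 (SE 0.18), or 2.22-fold. The libraries of vitrified oocytes lay wholly above those of fresh ones for 111 of the 8441 tested genes (1.32%), and since this contrast chose SLC7A3, nothing is read from its place among them.

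Depth class divides the vitrified libraries, so SLC7A3 is also given within each class, as a description. The 5 nitrogen libraries below 4000000 counts averaged 658 ± 117 CPM of SLC7A3 (474 to 771 CPM), against 309 ± 70.0 CPM in the 3 fresh libraries, which are as shallow. The 1 deep nitrogen library, at 757 CPM, lay within the helium range of 602 to 832 CPM. With depth class as a term, the difference between vitrified and fresh oocytes was 1.07 on the log2 scale. Only nitrogen 6.6 M held libraries of both classes, so that term rests on its library 3 against libraries 1 and 2. It cannot separate depth from helium apart from that library. With no depth term and without any single library, the difference lay between 0.98 and 1.28, the lowest without fresh library 1 and the highest without fresh library 2. SERPINE2, a cumulus and granulosa marker, was also higher on average in vitrified oocytes, at 20.8 ± 8.55 FPKM (13.3 to 44.0), against 10.07 ± 5.45 FPKM in fresh ones (5.30 to 16.01). Of the 7 tested markers of its list, 4 had a log2 difference above 0. The most abundant ones were lower in vitrified oocytes, by CPM without TMM. HAS2 had group means of 96.2 to 111 CPM against 120 CPM in fresh oocytes, and STAR 163 to 180 CPM against 192 CPM. The part of such cells in the SLC7A3 difference was not tested.

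By mean level the groups ran helium 5.6 M (768 ± 84.1 CPM), nitrogen 6.6 M (709 ± 68.8), helium 6.6 M (646 ± 45.2), nitrogen 5.6 M (640.3 ± 152) and fresh (309 ± 70.0; SD, n = 3 each). Neighbours among the 4 vitrified groups overlapped in their libraries. The step between nitrogen 5.6 M and fresh was the only one between neighbours with no overlap. It belongs to the contrast that chose SLC7A3, so nothing is read from it.

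The same difference can be stated as a share of the family. SLC7A3 held 60.2% ± 4.49 of the summed FPKM of the 52 amino acid transporters in vitrified oocytes (51.6 to 66.4%, n = 12) and 40.6% ± 3.18 in fresh oocytes (38.5 to 44.3%, n = 3). This share does not depend on scaling between libraries, but it restates the contrast that chose SLC7A3. The summed FPKM of the other 51 transporters was 203 ± 38.4 in vitrified oocytes and 204 ± 86.3 in fresh ones, so the groups overlapped there. The ratio of SLC7A3 to SLC7A2, per length, was 50.6 to 164 in vitrified oocytes and 18.9 to 49.8 in fresh ones. The ratio of SLC7A3 to SLC3A2 overlapped between the groups, with 3.27 to 11.1 in vitrified oocytes and 1.91 to 3.54 in fresh ones. Among all genes with a symbol, SLC7A3 ranked 231st to 427th by FPKM in vitrified libraries and 470th to 861st in fresh ones.

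**Figure D2:**
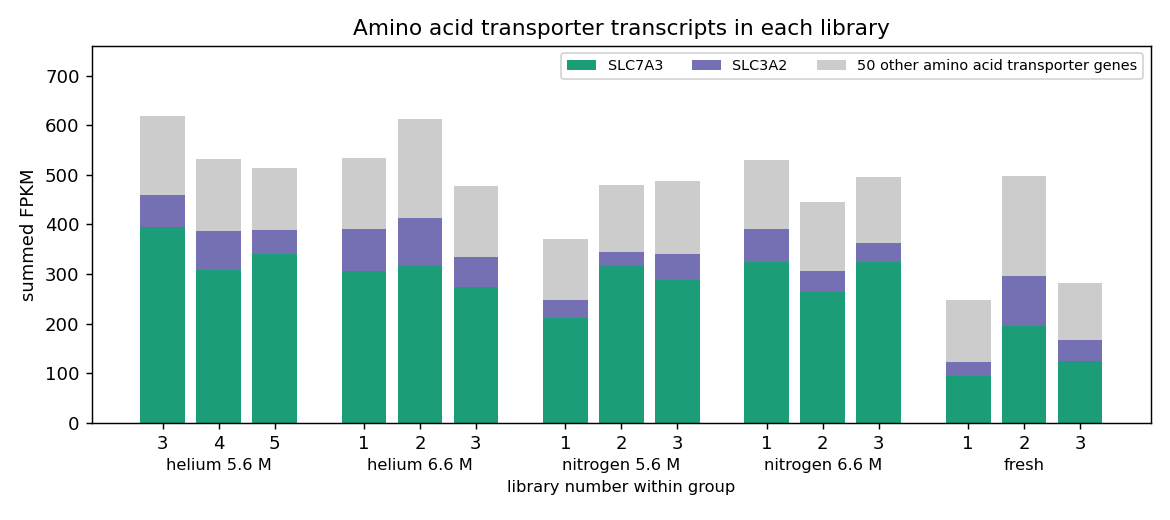
Summed FPKM of the 52 amino acid transporter genes in each library (linear axis from 0), split into SLC7A3 (green), SLC3A2 (violet) and the 50 others (grey); numbers under the bars are library numbers within a group. SLC7A3 holds 51.6 to 66.4% of the bar in vitrified libraries, against 38.5 to 44.3% in fresh ones, where the 50 others together form a larger piece than SLC7A3 in fresh libraries 1 and 2.

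Among vitrified oocytes, where the choice of SLC7A3 played no part, no effect of coolant or concentration on it was detected. SLC7A3 averaged 707 ± 90.0 CPM in the 6 helium libraries and 675 ± 112 CPM in the 6 nitrogen libraries. The log2 difference between helium and nitrogen was 0.06 (95% interval -0.24 to 0.37), with an adjusted p of 0.864 by edgeR's quasi-likelihood test over all 8441 genes. That between 6.6 M and 5.6 M was -0.05 (95% interval -0.35 to 0.25, adjusted p = 1.0 by the same edgeR test). The difference between coolants at 6.6 M minus that at 5.6 M, the interaction, was -0.40 (95% interval -1.01 to 0.21, adjusted p = 1.0 by edgeR). A difference of up to the bounds of these intervals could have gone undetected.

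SLC7A2, a cationic transporter whose products include a form that macrophages use to take up arginine, lies on chromosome 27 at 18785638 to 18810610. It stood at 10.9, 11.7 and 13.4 CPM in helium 5.6 M oocytes, at 10.4, 7.70 and 7.85 CPM in helium 6.6 M oocytes, at 5.51, 8.51 and 6.97 CPM in nitrogen 5.6 M oocytes and at 7.12, 5.28 and 4.05 CPM in nitrogen 6.6 M oocytes. Fresh oocytes had 10.7, 12.1 and 5.90 CPM. The helium libraries were the high ones among the vitrified, and the fresh libraries spread over nearly the whole range. SLC7A2 averaged 10.3 ± 2.22 CPM in helium oocytes and 6.24 ± 1.59 CPM in nitrogen oocytes (n = 6 each), a log2 difference of 0.76 (SE 0.22). This did not pass the threshold over all genes (edgeR adjusted p = 0.113, unadjusted p = 0.0028). Helium and nitrogen libraries overlapped in that nitrogen 5.6 M library 2 (8.51 CPM) lay above both lower helium 6.6 M libraries.

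SLC7A1, the widely expressed member of the cationic transporters (chromosome 12, 31004652 to 31019183), was almost absent. It had 11 counts in all, 1 to 4 in each of 6 vitrified libraries, and 0 in the 3 fresh libraries. The vitrified libraries together held 0.177 CPM, below the limit of 0.494 CPM that 3 counts over the fresh group set, so no fold is given. Of the summed FPKM of the 3 cationic transporters, SLC7A3 therefore held 98.6% ± 0.368 in vitrified oocytes and 96.5% ± 1.53 in fresh ones. The lowest vitrified library (98.06%) lay just above the highest fresh one (98.03%). This share too is built from the contrast that chose SLC7A3, so nothing is read from that gap.

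SLC3A2 encodes the CD98 heavy chain, which carries several light chains to the cell surface (chromosome 29, 41855871 to 41896760). Its level was 149, 191 and 121 CPM in helium 5.6 M oocytes, 207, 216 and 148 CPM in helium 6.6 M oocytes, 85.5, 76.1 and 138 CPM in nitrogen 5.6 M oocytes and 164, 112 and 97.7 CPM in nitrogen 6.6 M oocytes. Fresh oocytes had 71.5, 209 and 123 CPM, which covers nearly the whole range of the vitrified ones. The log2 difference between all vitrified and fresh oocytes was 0.03 (95% interval -0.50 to 0.55, edgeR adjusted p = 0.979). Helium oocytes averaged 172 ± 37.9 CPM and nitrogen oocytes 112 ± 33.4 CPM (n = 6 each), a log2 difference of 0.62 (SE 0.22, edgeR adjusted p = 0.185, unadjusted p = 0.0107). Without the filter on low counts the same comparison passed (edgeR adjusted p = 0.00526), and over its other 19 alternatives it did not, with adjusted p from 0.00526 to 0.561 over all 20.

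Depth went with the coolant in both of these comparisons. The 1 deep nitrogen library, nitrogen 6.6 M library 3, had 4.05 CPM of SLC7A2 and 97.7 CPM of SLC3A2, below all 6 helium libraries, which had 7.70 to 13.4 CPM of SLC7A2 and 121 to 216 CPM of SLC3A2. The 5 shallow nitrogen libraries had 5.28 to 8.51 CPM of SLC7A2 and 76.1 to 164 CPM of SLC3A2. Nitrogen 6.6 M library 3 alone sets the term for depth class, because no other group held both classes. With that term, the log2 differences between helium and nitrogen were 1.23 for SLC7A2 (edgeR adjusted p = 0.239) and 1.05 for SLC3A2 (edgeR adjusted p = 0.309). The summed level of the 10 oocyte markers ran the same way, from 7252 to 8984 CPM in helium libraries and from 5368 to 7304 CPM in nitrogen libraries, and its part in these differences was not tested.

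**Figure D3:**
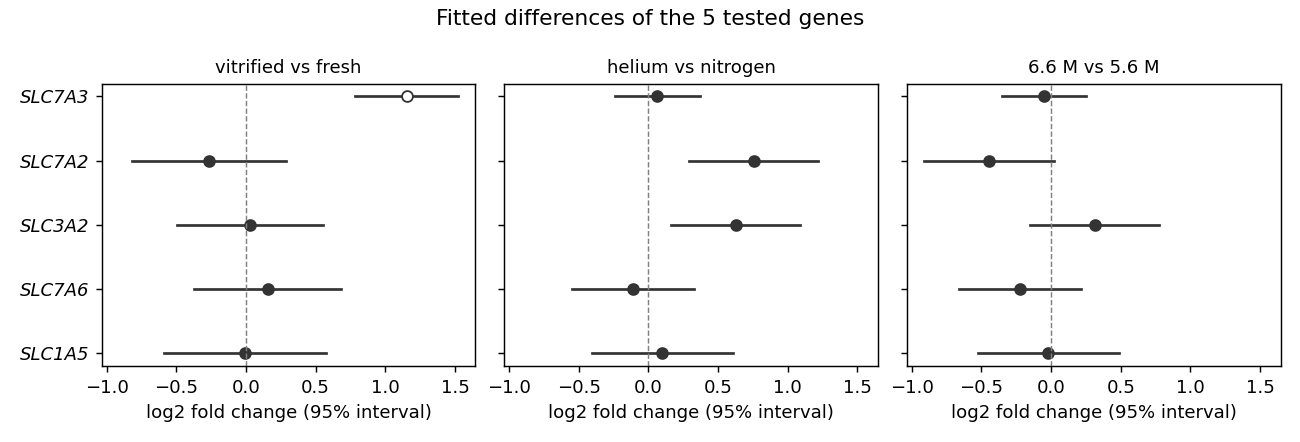
Fitted log2 fold changes of the 5 tested transporters with 95% intervals (horizontal axes, log2 scale) for vitrified against fresh oocytes (left), helium against nitrogen (middle) and 6.6 M against 5.6 M (right). The open circle marks the SLC7A3 value that chose the gene (1.15), and the largest of the other values are those of SLC7A2 (0.76) and SLC3A2 (0.62) between helium and nitrogen.

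The light chains of SLC3A2 were far rarer than the heavy chain. SLC7A6 exchanges arginine and other cationic amino acids for neutral ones and lies on chromosome 18 at 35763843 to 35794542. It had 26.0 to 30.0 CPM in helium 5.6 M oocytes, 15.7 to 25.6 CPM in helium 6.6 M oocytes, 22.4 to 32.5 CPM in nitrogen 5.6 M oocytes and 21.9 to 28.5 CPM in nitrogen 6.6 M oocytes. Fresh libraries 2 and 3, at 29.2 and 28.2 CPM, lay within the vitrified range, and fresh library 1, at 9.35 CPM, lay below it. The log2 difference between vitrified and fresh oocytes was 0.16 (95% interval -0.37 to 0.68, edgeR adjusted p = 0.855), and without fresh library 1 it was -0.18.

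SLC7A5, which carries large neutral amino acids such as leucine (chromosome 18, 13341371 to 13370494), had 9 counts over the 12 vitrified libraries and 2 counts over the 3 fresh ones. At this depth no difference was detectable. SLC7A11 imports cystine, the oxidised form of cysteine, in exchange for glutamate, and so feeds the making of glutathione (chromosome 17, 19729366 to 19808282). It had 87 counts, from 3 to 18 in each of 11 vitrified libraries, and 0 counts in nitrogen 5.6 M library 3 and in all 3 fresh libraries. Pooled, this was 1.40 CPM in vitrified oocytes, 2.84 times the limit of 0.494 CPM that 3 counts over the fresh group set. Among shallow libraries alone, the 5 nitrogen ones had 15 counts, or 1.36 CPM, 2.75 times that limit. The limit allows for counting error in the fresh group only. It covers neither counting error in the vitrified counts nor spread between libraries, so the true ratios could be lower. In a fit with no filter on low counts the difference of SLC7A11 between vitrified and fresh oocytes did not pass over all genes (edgeR adjusted p = 0.109, unadjusted p = 0.00165).

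The heavy chain exceeded the summed FPKM of 6 light chains (SLC7A5, SLC7A6, SLC7A7, SLC7A8, SLC7A10 and SLC7A11) in every library. The ratio was 5.34 ± 1.29 in helium oocytes, 3.57 ± 0.639 in nitrogen oocytes (n = 6 each) and 4.80 ± 1.69 in fresh oocytes (n = 3). The light chains' own sum was 13.6 ± 1.70 FPKM in helium oocytes, 12.3 ± 2.99 FPKM in nitrogen oocytes and 11.2 ± 4.47 FPKM in fresh ones. The groups overlapped in both measures, which are given as a description.

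SLC1A5, a sodium-dependent exchanger of neutral amino acids such as glutamine (chromosome 18, 54302393 to 54313935), did not differ detectably between any groups. It had 65.0, 71.4 and 66.3 CPM in helium 5.6 M oocytes, 65.7, 115 and 53.6 CPM in helium 6.6 M oocytes, 63.1, 48.7 and 111 CPM in nitrogen 5.6 M oocytes and 80.8, 56.1 and 51.6 CPM in nitrogen 6.6 M oocytes. Fresh oocytes had 54.8, 114 and 42.6 CPM. Single libraries stood high in the helium 6.6 M, nitrogen 5.6 M and fresh groups, and the rest lay between 42.6 and 80.8 CPM. The log2 difference between vitrified and fresh oocytes was -0.01 (95% interval -0.59 to 0.58, edgeR adjusted p = 0.995). SLC1A5 and SLC3A2 varied together more than any other pair of the 5 tested genes (Pearson r = 0.639 over the 15 libraries, a description), and fresh library 2 and helium 6.6 M library 2 were the 2 highest libraries for both.

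SLC38A2 couples the uptake of small neutral amino acids to sodium and is known in mammalian cells as a gene induced by amino acid shortage (chromosome 5, 34028553 to 34042996). Of its 89 counts, 55 came from helium 6.6 M library 2, 12 and 6 from helium 5.6 M libraries 3 and 5, 11 from helium 6.6 M library 3 and 5 from 3 nitrogen libraries. The other 8 libraries, among them the 3 fresh ones, had 0 counts. Pooled, vitrified oocytes held 1.43 CPM, 2.90 times the limit of 0.494 CPM set by 3 counts over the fresh group. Without helium 6.6 M library 2 they held 1.25 times that limit. By coolant, helium oocytes held 1.93 CPM, 3.90 times that limit. As for SLC7A11, counting error in the vitrified counts is not covered, so the true ratios could be lower. Helium 5.6 M library 4 and helium 6.6 M library 1 had 0 counts, and 55 of the 84 helium counts came from helium 6.6 M library 2. Helium oocytes averaged 0.412 FPKM with that library and 0.161 FPKM without it. Nitrogen oocytes held 0.272 CPM, and the 5 shallow nitrogen libraries 0.454 CPM, both below the limit, so no fold is given for them. In a fit with no filter on low counts, SLC38A2 passed between helium 6.6 M and fresh oocytes (edgeR adjusted p = 0.00939), the group that holds helium 6.6 M library 2, and not between all vitrified and fresh oocytes (edgeR adjusted p = 0.441). That library also held the highest level of the cumulus and granulosa markers, 588 CPM over 20 of 23 markers, with 130 CPM of TIMP1 and 30.8 CPM of TNFAIP6, its highest values in the series. The other vitrified libraries held 321 to 376 CPM over the 23 markers. HAS2 and STAR, the most abundant of them, did not peak in helium 6.6 M library 2. There HAS2 stood at 83.5 CPM, below its group means of 96.2 to 120 CPM. STAR stood at 191 CPM, against a highest value of 283 CPM in the series. The part of such cells in the SLC38A2 counts was not tested.

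**Figure D4:**
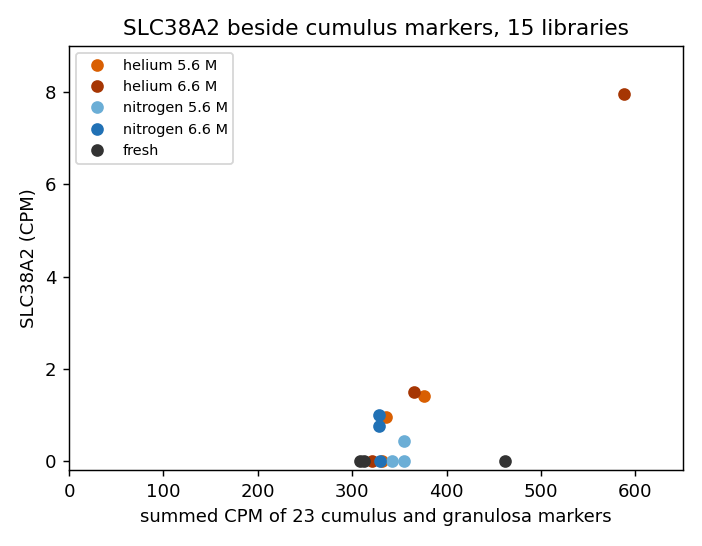
SLC38A2 in each library (vertical axis, CPM) against the summed level of 23 cumulus and granulosa markers (horizontal axis, CPM); each point is a library, coloured by group. Helium 6.6 M library 2 lies alone at 7.96 CPM of SLC38A2 and 588 CPM of markers, while fresh library 2 has the next highest marker sum, 461 CPM, and no SLC38A2 count.

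The differences of SLC7A3 from fresh oocytes carry no test here. None of the 4 other tested transporters passed the threshold in any of the 12 comparisons with edgeR and the filter on low counts. None passed with DESeq2 either, where it gave an adjusted p. Against fresh oocytes, edgeR called 0.509% of all tested genes for the 12 vitrified libraries together, 0.474% for helium 5.6 M, 0.628% for helium 6.6 M, 0.0118% for nitrogen 5.6 M and 0.0474% for nitrogen 6.6 M. The helium 6.6 M share stands for 53 genes, and 3 genes with the replicate number as a block. Between helium and nitrogen 0.663% of all genes were called. No gene was called for concentration, for the interaction, or for coolant or concentration within a level of the other factor. That is 0% of the 8441 genes in each. In those 6 comparisons 166 to 803 genes had an unadjusted p under 0.05, and DESeq2 called 48 genes between coolants at 5.6 M, 8 at 6.6 M and 0 in the other 4.

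At an unadjusted p under 0.05, none of the 4 genes was counted in all vitrified oocytes (13.6% of all tested genes), helium 5.6 M (14.1%), helium 6.6 M (15.4%) or nitrogen 5.6 M oocytes (6.74%) against fresh ones. SLC7A2 alone was counted in nitrogen 6.6 M oocytes, where 8.23% of all genes were, with a log2 difference of -0.86 from fresh oocytes (SE 0.34, edgeR adjusted p = 0.486). SLC7A2 and SLC3A2 were counted between helium and nitrogen, where 16% of all tested genes were. For SLC7A2 the difference between coolants had nearly the same size at each concentration, with log2 differences of 0.78 at 5.6 M (SE 0.31) and 0.74 at 6.6 M (SE 0.31). It was the only one of the 4 counted at each concentration, where 9.51% of all genes at 5.6 M and 8.03% at 6.6 M were. None of the 4 was counted between 6.6 M and 5.6 M (2.24% of all genes; 2% in helium and 1.97% in nitrogen) or for the interaction (2.1%). The interaction for SLC7A2 was -0.04 (95% interval -0.996 to 0.92, edgeR adjusted p = 1.0). For SLC3A2 the log2 differences between coolants were 0.63 at 5.6 M and 0.62 at 6.6 M, with edgeR adjusted p of 0.55 and 0.633.

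The wider transporter family was then set beside these genes. Of 48 further amino acid transporter symbols 43 were in the table and 14 were tested. Of these, 0 passed in any comparison with edgeR and the filter on low counts, or with DESeq2. Their median log2 difference between vitrified and fresh oocytes was 0.08, with 8 of 14 above 0, against a median of -0.03 over all tested genes, of which 46.5% lay above 0. SLC38A6 and SLC38A11, relatives of SLC38A2 and the most abundant of these genes, averaged 28.2 ± 8.52 and 22.5 ± 4.66 FPKM in vitrified oocytes, against 32.9 ± 6.12 and 23.5 ± 0.626 FPKM in fresh oocytes. SLC3A1, the other heavy chain of the family, was named after its values were seen. It averaged 1.89 ± 0.508 FPKM in vitrified oocytes and 3.99 ± 1.305 FPKM in fresh ones, a log2 difference of -1.09 (SE 0.29, edgeR adjusted p = 0.094). Its vitrified libraries reached 2.85 FPKM and its fresh ones began at 2.50 FPKM, so the groups overlapped. SLC7A9, the light chain that pairs with SLC3A1, had a log2 difference of 1.08 (SE 0.56, edgeR adjusted p = 0.408).

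**Figure D5:**
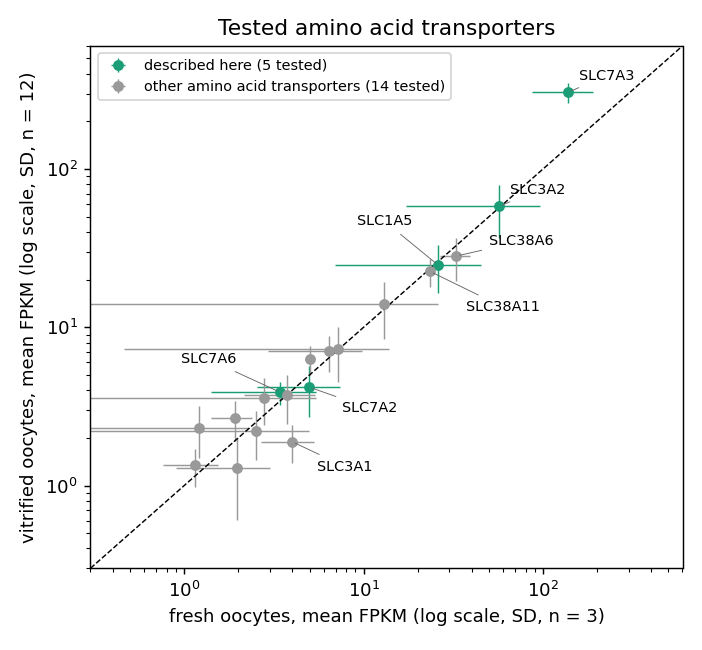
Mean FPKM of the 19 tested amino acid transporters in vitrified oocytes (vertical, n = 12) against fresh oocytes (horizontal, n = 3), both on log axes with SD bars cut at the lower axis limit; the dashed line marks equal levels. SLC7A3 lies above the line at 306 against 138 FPKM, and SLC3A1 below it at 1.89 against 3.99 FPKM.

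Genes that use or sense the amino acids carried by these transporters were examined by list. With the filter on low counts, edgeR called none of them in any of the 12 comparisons. In arginine, ornithine and polyamine metabolism 17 of 31 genes in the table were tested. OAZ1, which restrains polyamine synthesis, averaged 1073 ± 383 FPKM in vitrified oocytes and 1236 ± 600 FPKM in fresh ones. OAT, which converts ornithine towards glutamate and proline, averaged 129 ± 19.6 FPKM in vitrified oocytes and 91.5 ± 31.0 FPKM in fresh ones. Between vitrified and fresh oocytes, 5 of the 17 had an unadjusted p under 0.05, against 13.6% of all tested genes. DESeq2 called OAT, at a log2 difference of 0.51 (adjusted p = 0.0178), and AZIN1, which opposes OAZ1, at -0.52 (adjusted p = 0.0394). In edgeR OAT had an adjusted p of 0.15 and AZIN1 of 0.132. DESeq2 also called AZIN1 (-0.74), OAT (0.60) and the spermine synthase SMS (0.62) between helium 5.6 M and fresh oocytes. Between helium 6.6 M and fresh oocytes it called AZIN1 (-0.65) and DDAH1 (-1.10), which breaks down methylated arginine. Over all genes, DESeq2 called several times as many as edgeR against fresh oocytes and between helium and nitrogen. Its calls here and in the lists below stand beside those larger counts, which the last section gives.

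In the response to amino acid shortage and stress 20 of 26 genes were tested, and 2 of them had an unadjusted p under 0.05 between vitrified and fresh oocytes, against the same 13.6% of all genes. DESeq2 called EIF2AK4, a kinase that senses uncharged transfer RNA, between helium 5.6 M and fresh oocytes (log2 difference -0.44, adjusted p = 0.0442). DDIT3, a transcription factor of the stress response, averaged 731 ± 75.7 FPKM in vitrified oocytes and 549 ± 58.9 FPKM in fresh ones (log2 difference 0.36, SE 0.15, edgeR adjusted p = 0.311). PSPH, the last enzyme of serine synthesis, averaged 341 ± 67.7 FPKM in vitrified oocytes and 355 ± 104 FPKM in fresh ones. Among genes that pass amino acid signals to the growth regulator mTORC1, 27 of 38 were tested. Of these, 3 had an unadjusted edgeR p under 0.05 between vitrified and fresh oocytes, against 13.6% of all tested genes. LAMTOR3, a scaffold of that pathway on the lysosome, averaged 300 ± 42.9 FPKM in vitrified oocytes and 197 ± 15.9 FPKM in fresh ones, a log2 difference of 0.57. It was called by DESeq2 (adjusted p = 0.0127) and not by edgeR (adjusted p = 0.123). SEC13, shared by the nuclear pore and an upstream regulator of mTORC1, averaged 217 ± 46.1 FPKM in vitrified oocytes and 214 ± 83.0 FPKM in fresh ones.

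In cysteine and glutathione synthesis, which SLC7A11 supplies, 8 of 14 genes were tested. Of these, 0 had an unadjusted edgeR p under 0.05 between vitrified and fresh oocytes, against 13.6% of all tested genes. CDO1, which breaks down cysteine, averaged 728 ± 74.6 FPKM in vitrified oocytes and 603 ± 196 FPKM in fresh ones. GSR, which restores oxidised glutathione, averaged 64.8 ± 9.16 FPKM in vitrified oocytes and 78.3 ± 18.3 FPKM in fresh ones. Between helium and nitrogen, DESeq2 called GCLM, a subunit of the enzyme that starts glutathione synthesis, at a log2 difference of -0.48 (adjusted p = 0.0438). Among the marker lists, edgeR called SERPINE2, a cumulus and granulosa marker, between helium 6.6 M and fresh oocytes (log2 difference 1.504, SE 0.32, adjusted p = 0.0317) and, with the filter on low counts, no other marker in any comparison. For vitrified against fresh oocytes SERPINE2 had a log2 difference of 1.06 (SE 0.28, edgeR adjusted p = 0.0905). DESeq2 called SERPINE2 there (1.07, adjusted p = 0.00999), in helium 5.6 M (1.19, adjusted p = 0.0212) and in helium 6.6 M (1.508, adjusted p = 0.00143), each against fresh. It also called the oocyte marker ZP2 between helium 5.6 M and fresh oocytes (0.57, adjusted p = 0.0361). The 11 blood and immune markers in the table summed to 3.88 to 22.2 CPM in vitrified libraries and 1.06 to 4.26 CPM in fresh ones, with HBB, CD14, CD74 and TYROBP at 0 in all 15.

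The genes whose levels ran most like that of SLC7A3 over the 15 libraries were SNRPC, RAB9A, RPA1, BUB3 and PCBD1, out of 4844 with a symbol and at least 5 FPKM on average. Pearson's r on log2 CPM was 0.941 for SNRPC, a protein of the U1 particle in splicing, and 0.932 for RAB9A, a small GTPase of late endosomes. It was 0.912 for RPA1, which binds single-stranded DNA, 0.908 for BUB3 of the spindle checkpoint and 0.902 for PCBD1, an enzyme that recycles a pterin cofactor. Over the 12 vitrified libraries alone r was 0.578 for SNRPC (rank 62 of 4844), 0.670 for RAB9A (rank 22), 0.661 for RPA1 (rank 24), 0.395 for BUB3 (rank 297) and 0.781 for PCBD1 (rank 3). The values over 15 libraries include the step between vitrified and fresh oocytes that chose SLC7A3. All libraries also share their scaling and differ in depth, so these values describe the order of the libraries and carry no test. Within the family, SLC7A6 came nearest to SLC7A3 with r = 0.550 over 15 libraries and 0.377 over the 12 vitrified ones.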

How the data were processed

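Messenger RNA was measured in 15 libraries. Counts were deposited by the authors as whole numbers per gene and library, per the file headers, and FPKM values were deposited beside them. FPKM could be rebuilt from count, gene length and total in all 180473 values above 0, to within 0.1 percent, so both tables hold 1 measurement. Per the submitters' processing notes, the tools included HISAT2 2.0.4 and StringTie 1.3.0 and the build was UMD3.1. For strand use and multiply mapped reads, the setting is not given in the sources used here, and no other gene in the table overlaps any of the 9 transporters.

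Groups and replicate numbers came from the labels. In R 4.3.3, edgeR 4.0.16 scaled libraries by TMM, kept 8441 of 24616 genes with filterByExpr and fitted all 5 groups in 1 robust quasi-likelihood model. The 12 comparisons were contrasts within that model, and p-values were adjusted over the 8441 genes by Benjamini-Hochberg (called at 0.05). The fit was tested on simulated counts. Alternatives were RLE scaling, no filter on low counts, DESeq2 1.42.0, the replicate number as a block, depth class (above or below 4000000 counts) as a term, and leaving out each library. Pooled low counts without helium 6.6 M library 2 and values among shallow libraries were added after seeing the data. A limit for a group at 0 is 3 counts over the group. Between helium 6.6 M and fresh libraries of the same number, deviations from the group means had correlations of 0.147, 0.306 and 0.227. Each was above 0.1, which no other comparison with 3 pairs showed throughout. Over all same-number pairs the correlations ran from -0.355 to 0.431. Libraries of different number were not compared, so no pairing is read from these values.

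All members were described. Of 8 further lists (224 symbols, 195 in the table), genes past the threshold, or else the 2 with the highest mean FPKM, were named. Members and lists were chosen with earlier results of these data known. No sequences are shown.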

Additional observations from a re-analysis of the deposited data

Results flagged for a closer look

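In 18 checks of a transporter within the 6 helium or the 6 nitrogen libraries, a single library stood far from the others 2 times. Chance marks about 1 in 20 groups of normally distributed values. These groups join both concentrations, and SLC7A1, SLC7A5 and SLC38A2 have counts near 0 in most libraries, so that rate need not hold here. For SLC38A2, helium 6.6 M library 2 had 7.96 CPM and the other 5 helium libraries 0 to 1.501 CPM, so the gap to the next library took up 0.812 of the whole range. For SLC1A5, the same library had 115 CPM and the other 5 helium libraries 53.6 to 71.4 CPM, a gap of 0.709 of the range. Both gaps exceed Dixon's 95% critical value for groups of 6. For SLC7A3 the largest such gap was 0.526, at the low nitrogen 5.6 M library 1.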

How the results depend on the processing

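Over all genes, edgeR without the filter on low counts called 142 genes for vitrified, 160 for helium 5.6 M, 239 for helium 6.6 M, 26 for nitrogen 5.6 M and 60 for nitrogen 6.6 M, each against fresh. It called 344 between helium and nitrogen, 61 at 5.6 M and 67 at 6.6 M, 3 between 6.6 M and 5.6 M, 15 in helium and 3 in nitrogen alone, and 2 for the interaction. DESeq2 called 220 for vitrified, 282 for helium 5.6 M, 331 for helium 6.6 M, 36 for nitrogen 5.6 M and 93 for nitrogen 6.6 M against fresh, 292 between coolants, 48 at 5.6 M and 8 at 6.6 M. With the replicate block, edgeR called 1 gene for nitrogen 6.6 M and 3 for helium 6.6 M against fresh. The helium 5.6 M libraries are numbered 3, 4 and 5, and numbers 4 and 5 occur in no other group. The block fits those libraries exactly, which leaves helium 5.6 M resting on its library 3. No counts with the block are therefore given for comparisons that include helium 5.6 M. Depth class as a term was set by nitrogen 6.6 M library 3 alone. With that term edgeR called 1 gene for vitrified, 0 for helium 5.6 M and 6.6 M, 2 for nitrogen 5.6 M and 1 for nitrogen 6.6 M against fresh. It also called 13 between coolants, 2 at 5.6 M and 3 at 6.6 M. The causes of these changes were not tested.

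Without single libraries the counts ran from 3 (without fresh library 1) to 265 (without fresh library 2) for vitrified, from 1 (without helium 5.6 M library 3 or 5) to 471 (without fresh library 2) for helium 5.6 M and from 3 (without helium 6.6 M library 2 or fresh library 1) to 625 (without fresh library 2) for helium 6.6 M. They ran from 1 to 3 (without fresh library 3) for nitrogen 5.6 M and from 1 to 21 (without fresh library 3) for nitrogen 6.6 M. Between coolants they ran from 15 (without helium 5.6 M library 4) to 248 (without fresh library 2), at 5.6 M from 0 to 24 and at 6.6 M from 0 to 3, both highest without fresh library 2. The other 4 comparisons kept 0.

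For the transporters, SLC3A2 between helium and nitrogen passed without the filter on low counts (log2 difference 0.66), as did 1 of the further amino acid transporters, 1 gene of mTORC1 signalling, 3 cumulus and granulosa markers, 1 blood and immune marker and 1 oocyte marker. In that fit SLC38A2 also passed for helium 6.6 M against fresh (adjusted p 0.00939), and 2 cumulus and granulosa markers for vitrified against fresh. The signs of several small differences changed. With depth class as a term these were SLC7A2 (0.10) and SLC1A5 (0.23) against fresh, SLC7A3 (-0.056) and SLC7A6 (0.20) between coolants, and SLC1A5 (0.048) between concentrations. SLC1A5 against fresh was also 0.024 without the filter, 0.087 with the block and 0.0035 by DESeq2. Without single libraries, the difference between vitrified and fresh ran from -0.18 to 0.37 for SLC7A6, -0.27 to 0.49 for SLC3A2 and -0.28 to 0.54 for SLC1A5. Between coolants it ran from -0.025 to 0.14 for SLC7A3 and -0.094 to 0.30 for SLC1A5, and between concentrations from -0.14 to 0.028 for SLC7A3 and -0.21 to 0.18 for SLC1A5. SLC7A3 against fresh was 1.19 with the block. The SLC7A3 share of the cationic transporters, 2.17 percentage points higher in vitrified than in fresh oocytes, differed by 1.92 points by counts and by 1.43 to 2.95 points without single libraries. These differences rest on the contrast that chose SLC7A3 and are a description. Depth limits SLC7A1, SLC7A5, SLC7A11 and SLC38A2, for which DESeq2 gave no adjusted p against fresh or between helium and nitrogen overall.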
